A study of Mus musculus with 8 samples.

Results

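The aminoacyl-tRNA synthetases were followed in mouse pancreatic islets after prolonged culture in high glucose. The members were taken by gene symbol from the deposited table, which lists 27534 genes, and comprised 36 genes. Of these, 20 encode cytosolic enzymes and 16, whose symbols end in 2, encode mitochondrial enzymes. The islets came from C57BL/6J mice and were kept for 72 h in RPMI medium with 10% fetal bovine serum and HEPES buffer, in 20 mM glucose (high glucose) or in 7.5 mM glucose (low glucose), with 4 libraries in each group. The groups differ, per the labels, by the glucose concentration alone. The labels give neither the age of the mice nor whether the libraries came from separate animals, so the p-values measure only the spread between these libraries, which may be technical.

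Each synthetase joins 1 amino acid to its matching transfer RNA (tRNA), and the charged tRNA then delivers that amino acid to the ribosome. The cytosolic enzymes supply the translation of nuclear-encoded proteins, among them insulin in the β cell, whereas the mitochondrial enzymes are imported into mitochondria and supply the translation of the few proteins encoded by mitochondrial DNA. Kars and Gars each give both a cytosolic and a mitochondrial enzyme, Eprs charges both glutamate and proline, and Farsa and Farsb encode the subunits of a single enzyme. Several cytosolic synthetase genes are known in other cell types as targets of ATF4, the transcription factor of the amino acid response.

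In high glucose, 11 of the 20 cytosolic synthetases rose and none fell, whereas none of the 16 mitochondrial synthetases rose and 2 fell. These counts are of genes with an adjusted p below 0.05 in edgeR's quasi-likelihood test on the deposited counts, with Benjamini-Hochberg adjustment over 15442 genes, a set that held all 36 members. Over all genes tested, 13.1% rose and 11.9% fell. At an unadjusted p below 0.05 the cytosolic set had 15 higher and 0 lower members and the mitochondrial set 0 higher and 3 lower. No share of all genes is given at that unadjusted threshold, so such counts, here and further on, cannot be set against a background. DESeq2 gave 12 cytosolic members higher and limma-voom 11, and both gave 0 cytosolic members lower, 0 mitochondrial members higher and 2 lower. The median log2 fold change, high over low glucose, was 0.26 over the cytosolic set and -0.05 over the mitochondrial set, beside -0.01 over all genes tested. The log2 fold change was above 0 for 18 cytosolic and 7 mitochondrial members, against 48.5% of all genes. When libraries were scaled by total count alone, 1602 of all genes rose and 2636 fell, compared with 2023 and 1831 after TMM scaling, and 8 cytosolic members still rose with none falling, beside 10.4% and 17.1% of all genes. Under that scaling 3 mitochondrial members fell and none rose, and the median log2 fold change was 0.18 over the cytosolic set, -0.13 over the mitochondrial set and -0.09 over all genes.

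**Figure D1:**
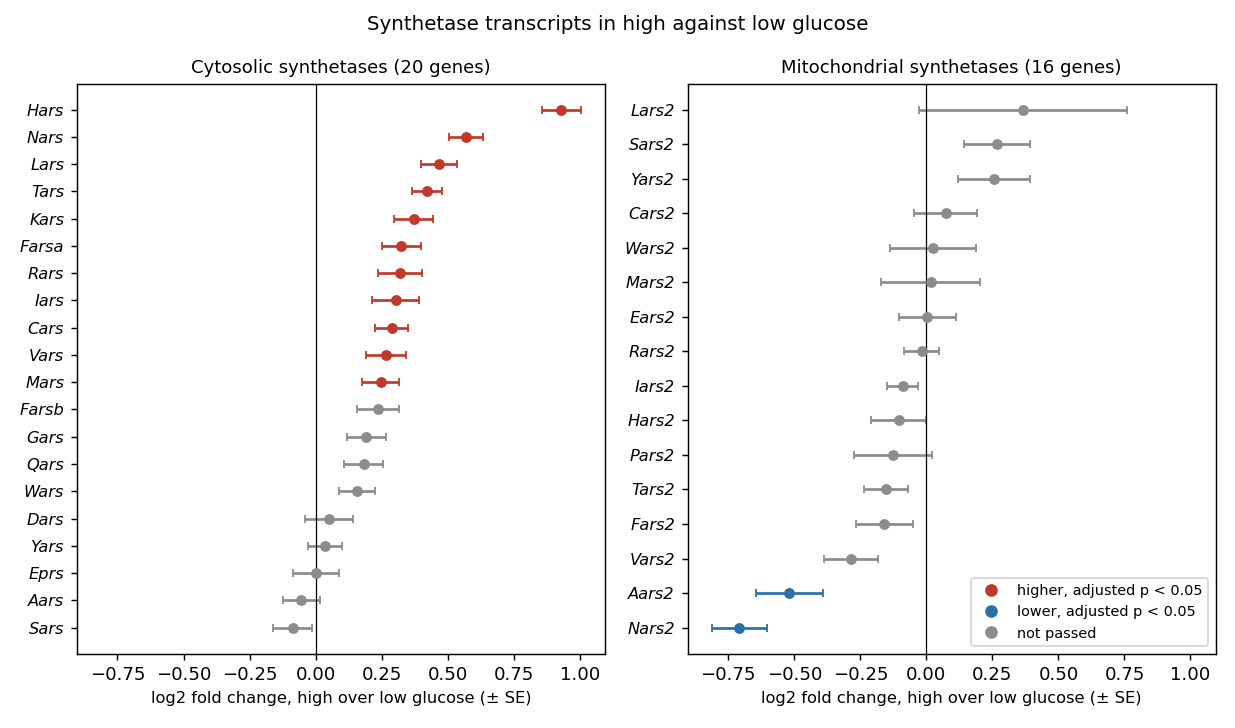
Log2 fold change of each synthetase transcript, high over low glucose, with its standard error, for the 20 cytosolic (left) and 16 mitochondrial (right) genes, ordered by size. Of the cytosolic genes 11 lie to the right of 0 with an adjusted p below 0.05, and of the mitochondrial genes 2 lie to the left.

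Total counts per library were 20516328 to 24905499 (high glucose) and 19543045 to 24949515 (low glucose). The islet hormones Ins1, Ins2, Iapp, Gcg, Sst and Ppy together gave 222573 to 297752 CPM (counts scaled to a common library total) in high glucose libraries and 204057 to 296588 CPM in low glucose libraries, so the labelled tissue was present. Of these 6, Iapp rose and none fell. Among markers of other cells, 1 of 11 tested acinar genes rose (Bhlha15), and the 12 listed acinar genes summed to 3162 to 16509 CPM in high glucose libraries and 1165 to 9552 CPM in low glucose libraries. The acinar sum was higher in high glucose in all 4 same-numbered pairs of libraries, and with the replicate number as a block 7 of the 11 acinar genes, 3 of the 6 hormone genes and 3 of the 7 duct genes rose, beside 18.9% of all genes. Fibroblast and stellate markers (0 of 8 passed, 1 higher at an unadjusted p below 0.05) summed to 142 to 1139 CPM in high glucose and 114 to 320 CPM in low glucose, with the highest value in high glucose replicate 1. All 8 cell-cycle markers rose, with sums of 180 to 246 CPM in high glucose and 76.3 to 99.3 CPM in low glucose, and duct markers (1 of 7 rose and 1 fell) summed to 579 to 601 CPM in high glucose and 446 to 561 CPM in low glucose. Of the endothelial markers 0 of 6 passed, with 1 higher at an unadjusted p below 0.05 (25.7 to 31.3 CPM in high glucose, against 26.8 to 35.0 CPM in low glucose), and of the immune markers 1 of 6 tested, Cd79a, fell (27.1 to 38.4 CPM in high glucose, against 33.8 to 41.0 CPM in low glucose). DESeq2 and limma-voom also passed 0 fibroblast and 0 endothelial markers. The markers named here were chosen after their values were seen, and no marker that the deposited table lists was at 0 in all 8 libraries. The immune list also named Cd3e, which the deposited table does not list. In bulk RNA, a change in the number of cells of a type and a change in RNA per cell cannot be told apart, and the part of these other cells in the synthetase results was not tested beyond the 2 fits named here. With the acinar share of each library as a covariate 9 cytosolic synthetases rose, beside 12.7% of all genes, and with the fibroblast share, added after the data were seen, 8 rose, beside 10.2% of all genes. In these fits 3 and 2 mitochondrial members fell, beside 10.5% and 8.59% of all genes.

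Hars, the cytosolic histidyl-tRNA synthetase (chr18:36766530-36783205, with coordinates here and for the genes after it as the deposited table gives them, GRCm38 per the submitters' processing notes), showed the largest difference of the 36 members. It had 72.1, 70.9, 67.3 and 67.0 CPM in high glucose libraries 1 to 4, against 37.1, 40.3, 34.5 and 33.6 CPM in low glucose libraries 1 to 4. Every high glucose library lay far above every low glucose library. The mean was 69.3 ± 2.57 CPM in high glucose and 36.4 ± 3.00 CPM in low glucose (SD, n = 4 each), a 1.91-fold difference (log2 0.93 ± 0.07 SE, edgeR adjusted p = 1.62e-05).

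Nars, the asparaginyl-tRNA synthetase (chr18:64499665-64516557), had the highest level per kilobase of gene length of the 36 members in high glucose, at 111 CPM per kilobase, against 75.1 in low glucose. Gars was close to it in high glucose, at 110 CPM per kilobase, and above it in low glucose, at 96.6. Nars had 302, 279, 293 and 298 CPM in high glucose and 192, 203, 195 and 201 CPM in low glucose. The groups were widely separated, and the fold was 1.48 (log2 0.57 ± 0.06 SE, edgeR adjusted p = 0.000148).

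Lars, the leucyl-tRNA synthetase, which in human cells has also been described as a leucine sensor upstream of mTORC1, had 176, 165, 189 and 169 CPM in high glucose and 121, 126, 130 and 127 CPM in low glucose. Its libraries did not overlap between the groups either, at 1.38-fold (log2 0.47 ± 0.07 SE, edgeR adjusted p = 0.000698).

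Tars, the threonyl-tRNA synthetase (chr15:11382301-11399665), varied least between libraries of a group. It had 116, 113, 115 and 112 CPM in high glucose, against 82.6, 87.8, 85.9 and 84.5 CPM in low glucose. All high glucose libraries were above all low glucose libraries, with a 1.34-fold difference (log2 0.42 ± 0.06 SE, edgeR adjusted p = 0.000507). The 250 bases before its RefSeq start (GRCm38.p6, 57.6% G or C) are shown because they hold a copy of the ATF4 composite core described further on, which stands in capitals near the 3′ end:
Tars (chr15:11399659-11399908, minus strand): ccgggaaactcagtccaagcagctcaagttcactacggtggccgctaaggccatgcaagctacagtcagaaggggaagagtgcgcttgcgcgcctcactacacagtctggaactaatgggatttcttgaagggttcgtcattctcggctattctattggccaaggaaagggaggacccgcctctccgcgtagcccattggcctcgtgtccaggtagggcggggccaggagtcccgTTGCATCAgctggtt

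The other cytosolic members that rose did so by 1.19- to 1.29-fold. Kars, the lysyl-tRNA synthetase, had 95.9 to 103 CPM in high glucose and 70.8 to 84.4 CPM in low glucose (log2 0.37, edgeR adjusted p = 0.00457), and Farsa, the catalytic subunit of the phenylalanyl enzyme, had 36.3 to 41.2 CPM in high glucose, against 29.8 to 34.3 CPM in low glucose (log2 0.32, adjusted p = 0.00897). Cars, for cysteine, had 98.9 to 111 CPM in high glucose, against 82.8 to 88.5 CPM in low glucose (log2 0.29, adjusted p = 0.00761). In all 3 genes the ranges were apart. Rars, for arginine, had 70.4 to 75.4 CPM in high glucose, against 52.8 to 65.6 CPM in low glucose (log2 0.32, edgeR adjusted p = 0.0163). Iars, for isoleucine, had 113 to 131 CPM in high glucose, against 85.6 to 109.5 CPM in low glucose (log2 0.30, adjusted p = 0.0292). Mars, which charges both the initiator and the elongator methionine tRNA, had 156 to 176 CPM in high glucose, against 133 to 148 CPM in low glucose (log2 0.25, adjusted p = 0.025). These ranges were also apart. Vars, for valine, was the one member that rose with overlapping groups, at 98.8 to 115 CPM in high glucose, against 87.1 to 99.7 CPM in low glucose (log2 0.27, edgeR adjusted p = 0.0271), since high glucose replicate 2 lay under the highest low glucose library.

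Hars, Nars, Lars, Tars, Kars, Farsa and Cars passed under all 18 alternative settings, Rars under 16, Iars and Mars under 9 and Vars under 8. Without low glucose replicate 1 or without low glucose replicate 3, 7 cytosolic members rose. The share of all genes in fits that left out libraries is not given here. Same-numbered libraries of the groups varied together for replicates 2, 3 and 4, but hardly for replicate 1. With the replicate number as a block 15 cytosolic members rose, beside 18.9% of all genes. Farsb, Gars, Qars and Wars then passed too, with edgeR adjusted p from 0.0182 to 0.0284.

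Without the block, 9 cytosolic members did not pass. Farsb, the other subunit of the phenylalanyl enzyme, had a log2 fold change of 0.24 (edgeR adjusted p = 0.0543), Gars, for glycine, 0.19 (0.0856), Qars, for glutamine, 0.18 (0.098) and Wars, for tryptophan, 0.16 (0.123). The remaining 5 were close to 0. They were Dars, for aspartate (0.05), Yars, for tyrosine (0.03), Eprs (0.00), Aars, for alanine (-0.05) and Sars, for serine (-0.09). With libraries scaled by total count alone, the values of Dars, Yars and Eprs turned to -0.03, -0.04 and -0.08. Level per kilobase and difference did not go together for every member, as Sars, which did not pass, had 56.6 CPM per kilobase of gene length in high glucose and 60.1 in low glucose, and Hars had 34.9 in high glucose and 18.3 in low glucose. Without regard to the test, 12 cytosolic members had groups that did not overlap, all higher in high glucose, against 13.7% of all genes tested.

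Summed over the 20 genes, cytosolic synthetase transcripts reached 2983, 2926, 3084 and 2985 CPM in high glucose libraries 1 to 4 and 2495, 2677, 2594 and 2647 CPM in low glucose libraries 1 to 4. The sums did not overlap, and their means differed 1.15-fold (2995 ± 65.7 CPM in high glucose libraries and 2603 ± 79.9 CPM in low glucose libraries, SD, n = 4 each). When libraries were scaled by total count alone the ratio was 1.09 and the groups overlapped, at 2748 to 2980 CPM in high glucose and 2561 to 2773 CPM in low glucose.

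The mitochondrial synthetases were lower in abundance. Per kilobase of the deposited gene length, cytosolic members ran from 8.62 (Farsa) to 111 (Nars) CPM in high glucose and from 6.88 (Farsa) to 96.6 (Gars) CPM in low glucose. Leaving out Lars2, which is treated on its own, mitochondrial members ran from 0.590 (Mars2) to 13.4 (Rars2) CPM per kilobase in high glucose and from 0.581 (Mars2) to 13.5 (Rars2) in low glucose. The ranges overlapped, as Farsa and Qars lay below Rars2 in both groups. Counts per library were 621 to 8072 for cytosolic members and 91 to 1731 for these 15 mitochondrial members, whose log2 values had a median SD within groups of 0.15, against 0.08 for the cytosolic set.

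Nars2, the mitochondrial asparaginyl-tRNA synthetase (chr7:96951505-97064758), fell most of the 36 members. It had 12.7, 17.6, 15.3 and 15.1 CPM in high glucose, against 25.9, 26.5, 23.0 and 23.8 CPM in low glucose. Every high glucose library lay below every low glucose library, and the mean was 15.2 ± 1.99 CPM in high glucose and 24.8 ± 1.66 CPM in low glucose (SD, n = 4 each; log2 fold change -0.71 ± 0.10 SE, edgeR adjusted p = 0.000779). The 250 bases before its RefSeq start (GRCm38.p6, 58.4% G or C) are given beside those of Tars, and hold no match to the composite core:
Nars2 (chr7:96951277-96951526, plus strand): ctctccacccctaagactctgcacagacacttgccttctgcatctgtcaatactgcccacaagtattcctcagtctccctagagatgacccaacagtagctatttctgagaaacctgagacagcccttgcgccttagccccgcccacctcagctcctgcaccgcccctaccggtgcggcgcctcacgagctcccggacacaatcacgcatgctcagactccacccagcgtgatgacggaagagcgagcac

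Aars2, the mitochondrial alanyl-tRNA synthetase (chr17:45506841-45520843), had 11.8, 10.3, 8.62 and 12.9 CPM in high glucose, against 15.5, 16.5, 15.6 and 14.96 CPM in low glucose. Here too the groups did not overlap, with a log2 fold change of -0.52 ± 0.13 SE (edgeR adjusted p = 0.0127). Both falls passed under all 18 alternative settings. These 2 were the only mitochondrial members whose groups did not overlap and were lower, against 13.6% of all genes tested. Vars2, the mitochondrial valyl enzyme, had 16.9 to 23.0 CPM in high glucose, against 22.6 to 26.2 CPM in low glucose (log2 -0.29, edgeR adjusted p = 0.0663), and passed with the replicate block (adjusted p = 0.0241), where 18.5% of all genes fell.

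The other 13 mitochondrial members did not pass. Their log2 fold changes were -0.16 for Fars2, -0.15 for Tars2, -0.13 for Pars2, -0.10 for Hars2, -0.09 for Iars2 and -0.02 for Rars2. They were 0.00 for Ears2, 0.02 for Mars2, 0.02 for Wars2 and 0.07 for Cars2. The last 4 have no settled direction, since each turned below 0 when libraries were scaled by total count alone. Yars2 (0.26, edgeR adjusted p = 0.202), Sars2 (0.27, adjusted p = 0.151) and Lars2 had the highest values. Without low glucose replicate 2, Yars2 passed as higher, with an edgeR adjusted p of 0.0497.

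Without Lars2, the mitochondrial members summed to 292, 284, 275 and 289 CPM in high glucose and 318, 311, 309 and 301 CPM in low glucose. The high glucose libraries all lay below the low glucose libraries, and the ratio of the means was 0.922 (285 ± 7.53 CPM in high glucose libraries and 309.5 ± 6.94 CPM in low glucose libraries, SD, n = 4 each). It was 0.871 with libraries scaled by total count alone, again without overlap.

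**Figure D2:**
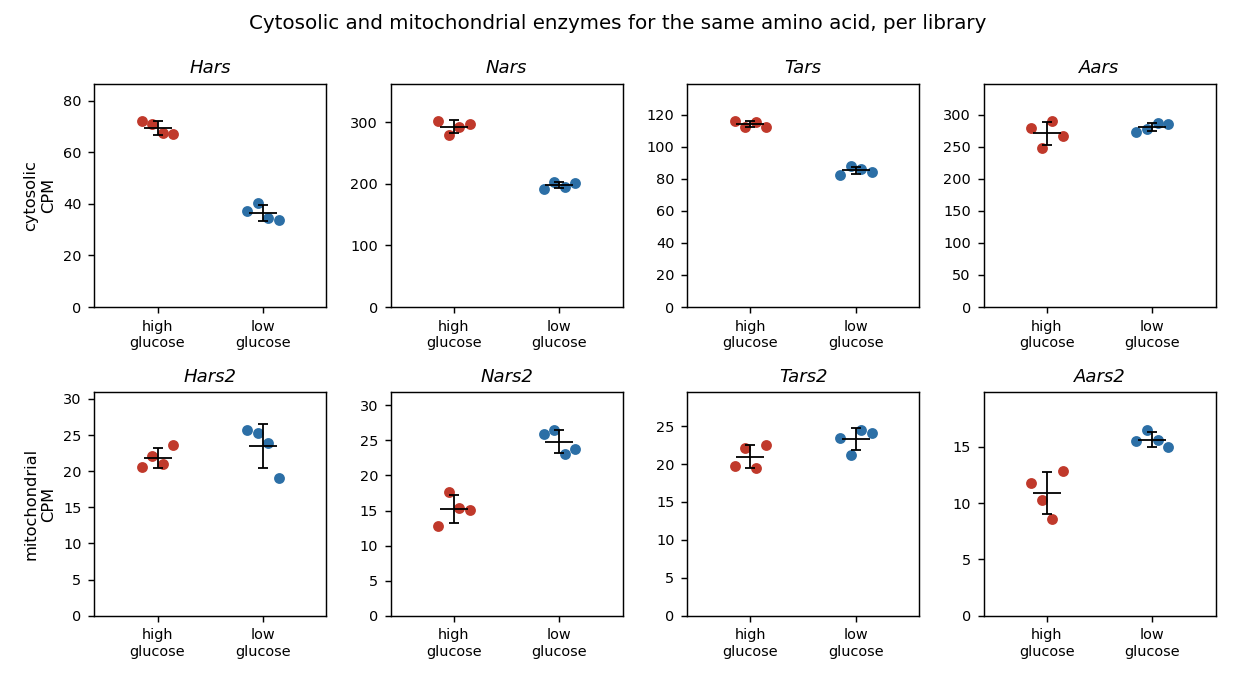
TMM-scaled CPM per library of the cytosolic (top) and mitochondrial (bottom) enzyme for histidine, asparagine, threonine and alanine, in high glucose (left of each panel) and low glucose (right). Points are the 4 libraries of a group and bars show mean ± SD; Hars, Nars and Tars are higher in every high glucose library, Nars2 and Aars2 are lower, and the groups of Hars2, Tars2 and Aars overlap.

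For 14 amino acids the cytosolic enzyme was set against the mitochondrial enzyme within each library, as the log2 ratio of their counts, which does not depend on how libraries are scaled. An exact two-sided permutation test over the 8 libraries was used for each pair, and its smallest possible p is 0.0286. The mean ratio was higher in high glucose for 12 of the 14 amino acids. For 8 of them the groups did not overlap, all with the higher ratio in high glucose and with the smallest possible p, not adjusted for the 14 pairs. Groups that do not overlap always give that p here, so it adds nothing to the lack of overlap. Each of the 8 pairs holds a member that passed on its own, so the ratios partly repeat those calls. No share over other pairs of genes was counted.

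For asparagine, the log2 ratio of Nars to Nars2 was 4.57, 3.98, 4.26 and 4.30 in high glucose and 2.89, 2.93, 3.08 and 3.08 in low glucose. The groups lay far apart, and the ratio was 2.43-fold higher in high glucose, with the cytosolic gene up and the mitochondrial gene down. For histidine, the log2 ratio of Hars to Hars2 was 1.81, 1.68, 1.68 and 1.51 in high glucose and 0.53, 0.67, 0.53 and 0.82 in low glucose. This was a 2.04-fold difference. Hars2 itself had 20.5, 22.2, 21.0 and 23.6 CPM in high glucose and 25.7, 25.2, 23.9 and 19.0 CPM in low glucose, and its groups overlapped. Hars and Hars2 lie head to head on opposite strands, and their exons share 195 bases, so that reads there may have been given to either gene or to none.

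For alanine the log2 ratio of Aars to Aars2 was 4.56, 4.59, 5.07 and 4.37 in high glucose and 4.14, 4.07, 4.20 and 4.26 in low glucose. The cytosolic Aars did not pass, at 279, 249, 290.5 and 267 CPM in high glucose and 274, 279, 287 and 286 CPM in low glucose, whereas Aars2 fell. The exact p of this pair was 0.0571 without any 1 of the low glucose libraries. The other 5 pairs whose groups did not overlap were Tars over Tars2 (difference of the log2 ratio, high minus low glucose, 0.57), Vars over Vars2 (0.56), Farsa over Fars2 (0.48), Iars over Iars2 (0.40) and Rars over Rars2 (0.34). In these the cytosolic member rose and the mitochondrial member did not pass.

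In 6 pairs the groups overlapped. The difference of the log2 ratio was 0.22 for Cars over Cars2 (exact p = 0.229), 0.19 for Lars over Lars2 (exact p = 0.8), 0.19 for Mars over Mars2 (exact p = 0.429) and 0.15 for Wars over Wars2 (exact p = 0.514). Serine and tyrosine ran the other way. The ratio of Sars to Sars2 differed by -0.36 (exact p = 0.0857) and that of Yars to Yars2 by -0.22 (exact p = 0.2). With the replicate number as a block the smallest p that 4 pairs of libraries allow is 0.125, so no pair could pass in that fit.

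**Figure D3:**
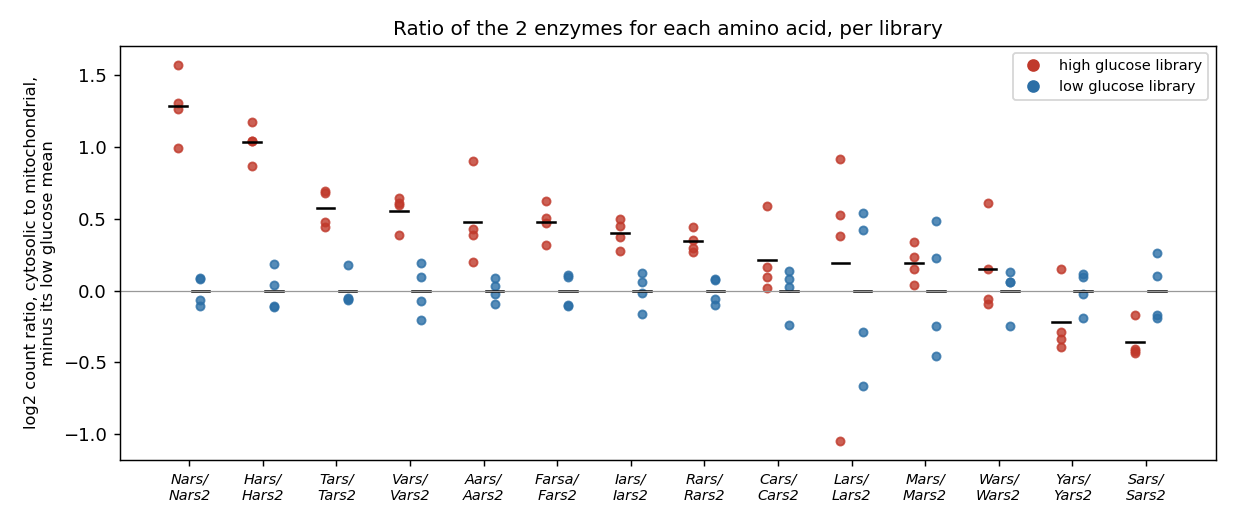
Log2 ratio of the counts of the cytosolic to the mitochondrial enzyme per library, less the mean of the low glucose libraries, for 14 amino acids, with high glucose points left of low glucose points and bars at the group means. The first 8 amino acids have every high glucose library above every low glucose library, whereas Lars over Lars2 spreads widely in both groups.

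Lars2, the mitochondrial leucyl-tRNA synthetase (chr9:123366927-123462666), was the most variable member. It had 403, 1123, 331 and 429.9 CPM in high glucose, against 276, 511, 321 and 666 CPM in low glucose. High glucose replicate 2 and low glucose replicate 4 stood above the others, the groups overlapped, and the log2 fold change of 0.37 had a standard error of 0.39 (edgeR adjusted p = 0.545). Without high glucose replicate 2 it was -0.19. Its level per kilobase, 51.6 CPM in high glucose libraries and 40.0 CPM in low glucose libraries, was above every other mitochondrial member. Gm23935, a gene of 57 bases that the deposited table lists as a microRNA on chromosome 16, was examined after the values of Lars2 were seen. It had 727, 1936, 507 and 703 CPM in high glucose and 495, 889, 555 and 1108 CPM in low glucose, and stood high in those libraries too. The count of Lars2 per count of Gm23935 was 0.555 to 0.653 over the 8 libraries, a 1.18-fold span, while Lars2 itself spanned 4.06-fold. How reads that fit both genes were counted is not given in the sources used here, and the part of such reads in Lars2 was not tested.

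**Figure D4:**
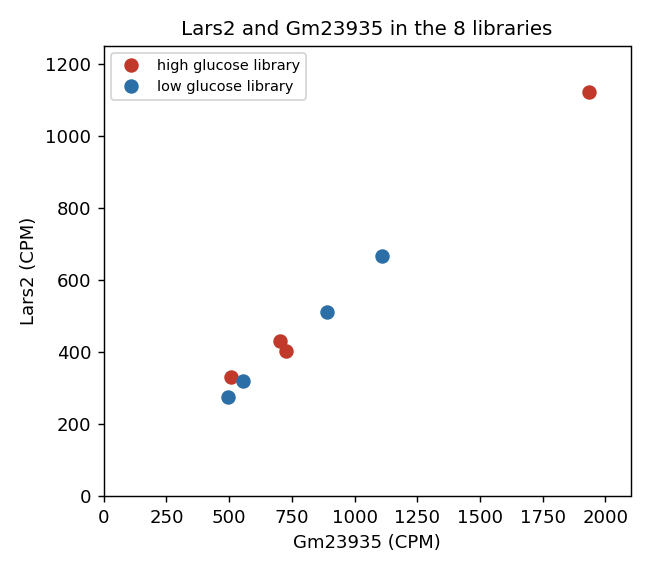
CPM of Lars2 against CPM of Gm23935 in the 8 libraries, with high glucose and low glucose libraries in different colours. High glucose replicate 2 lies at 1123 CPM of Lars2 and 1936 CPM of Gm23935, and the libraries fall near a single line.

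The cytosolic members were also grouped by what is known of the proteins. Of the 8 enzymes held in the multi-synthetase complex, 5 rose (Lars, Kars, Rars, Iars and Mars, median log2 fold change 0.27), and Dars, Eprs and Qars did not pass. None of the 3 scaffold genes of that complex passed in edgeR's test, with 1 higher at an unadjusted p below 0.05. DESeq2 passed 1 of them and limma-voom 0. Aimp2 had a log2 fold change of 0.40 (edgeR adjusted p = 0.06), Eef1e1 0.08 and Aimp1 0.03. By the fold of the catalytic domain, 6 of 9 class I enzymes (median 0.27) and 5 of 10 class II enzymes (median 0.28) rose. Eprs, which holds an enzyme of each class, was counted in neither. None of these groups had a member that fell. Of the whole cytosolic set 11 of 20 rose, and over all genes tested 13.1% rose and 11.9% fell. Differences between these groups were not tested.

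Of the 13 cytosolic synthetases reported elsewhere as responsive to ATF4, 7 rose (median log2 fold change 0.25), and of the other 7 cytosolic synthetases 4 rose (median 0.32). Of all 20 cytosolic members 11 rose, and of all genes tested 13.1%. Hars, with the largest rise, is among those other 7, as is Dars, with a log2 fold change of 0.05. On the ATF4 list, Nars, Lars and Tars rose by 0.57, 0.47 and 0.42 on the log2 scale. Aars, Sars, Eprs and Yars, also on that list, had log2 fold changes between -0.09 and 0.03. The part of ATF4 in these values was not tested. Atf4 itself had 403, 456, 435 and 386 CPM in high glucose and 272, 331, 269 and 289 CPM in low glucose. Its groups were apart, with a log2 fold change of 0.53 (edgeR adjusted p = 0.00178).

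Of the 14 genes of amino acid sensing and the ATF4 response, 6 rose and none fell, beside 13.1% and 11.9% of all genes. At an unadjusted p below 0.05 in edgeR's test 6 were higher and 2 lower, Ddit3 among them. With the replicate number as a block 8 rose and 2 fell, beside 18.9% and 18.5% of all genes. Psat1 and Phgdh, enzymes of serine synthesis, rose by 1.32 and 1.16 on the log2 scale (edgeR adjusted p = 3.46e-06 and 0.000123), and Chac1, which degrades glutathione, by 0.87 (adjusted p = 3.57e-05). Asns, the asparagine synthetase that makes the substrate of Nars, had 258, 287, 294 and 244 CPM in high glucose and 169, 188, 172 and 175 CPM in low glucose (log2 0.62, edgeR adjusted p = 0.000347). As with Nars, every high glucose library was above every low glucose library. Slc7a11, the cystine transporter, rose by 1.22 (adjusted p = 0.00622). Eif2ak4, the kinase GCN2 that senses uncharged tRNA, had a log2 fold change of -0.06 (adjusted p = 0.684), and Ddit3, encoding CHOP, -0.26 (edgeR adjusted p = 0.078). Ddit3 and Mars share 68 exon bases on opposite strands.

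**Figure D5:**
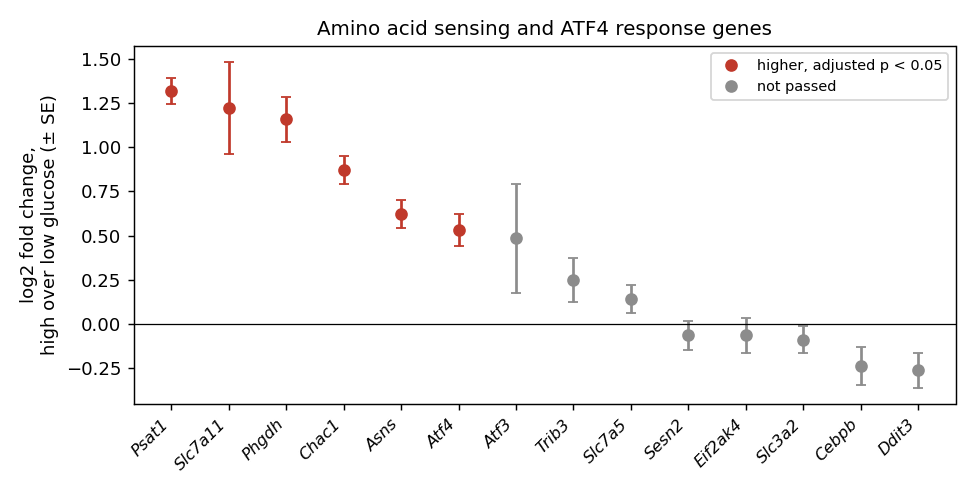
Log2 fold change, high over low glucose, with its standard error for the 14 genes of amino acid sensing and the ATF4 response. The 6 genes from Psat1 (1.32) to Atf4 (0.53) passed as higher, and Ddit3 at -0.26 has the lowest value.

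ATF4 binds a composite element with the core TGATGNAA (TTNCATCA on the other strand). The core was searched for on both strands of RefSeq promoters (GRCm38.p6), from 250 bases before to 50 after each start. It occurred in 3.97% of 32851 promoters. Of the 36 members 27 were matched to a promoter by gene symbol, Mars under the symbol Mars1. Cars, Hars, Lars, Nars, Rars, Vars, Wars, Hars2 and Pars2 were not matched. No other symbol was tried for these, so a promoter listed under another symbol would have been missed. The core was present in 5 of 13 cytosolic promoters and in 0 of 14 mitochondrial promoters. By the outcome in high glucose, it was in 2 of the 5 cytosolic promoters of genes that rose (Iars and Tars) and in 3 of the 8 others (Aars, Gars and Yars). Only these 5 of the 11 cytosolic members that rose had a matched promoter, and Hars, Nars and Lars, with the largest rises, had none. Matches are shown with the bases around them, core in capitals, for Aars 1 of them, followed by those of the genes of amino acid sensing and the ATF4 response that hold the core (Asns, Chac1 and Slc7a11, which rose, and Trib3 and Atf3, which did not pass):
Aars (chr8:111033840-111033869, plus strand): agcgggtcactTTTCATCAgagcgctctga
Gars (chr6:55037960-55037989, plus strand): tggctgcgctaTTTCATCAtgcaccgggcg
Iars (chr13:49682126-49682155, plus strand): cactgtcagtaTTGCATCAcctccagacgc
Tars (chr15:11399655-11399684, minus strand): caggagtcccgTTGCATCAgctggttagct
Yars (chr4:129189895-129189924, plus strand): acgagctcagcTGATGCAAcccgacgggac
Asns (chr6:7693214-7693243, minus strand): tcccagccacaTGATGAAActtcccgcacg
Chac1 (chr2:119351038-119351067, plus strand): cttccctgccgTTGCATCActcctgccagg
Slc7a11 (chr3:50443661-50443690, minus strand): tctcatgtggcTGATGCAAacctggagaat
Slc7a11 (chr3:50443642-50443671, minus strand): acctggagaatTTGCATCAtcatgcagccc
Trib3 (chr2:152344028-152344057, minus strand): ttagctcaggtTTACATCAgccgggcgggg
Atf3 (chr1:191183425-191183454, minus strand): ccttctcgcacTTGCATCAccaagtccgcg
The core began 15 bases before the start in Tars and 30 before in Gars, and at position 8 counted from the start in Iars. An E-box, CACGTG, was in 7.15% of all promoters, in 4 of the 13 cytosolic promoters (Aars, Farsb, Iars and Tars) and in 1 of the 14 mitochondrial promoters (Ears2), and none of its matches in these promoters overlapped the ATF4 core. These matches describe letters only and were not tested as binding sites.

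Genes of tRNA supply, of elongation and of amino acid sensing were listed as partners of the synthetases. Of these 77 genes 7 rose (9.09%) and 5 fell (6.49%), beside 13.1% and 11.9% of all genes, and 6 of the 7 belong to the ATF4 response. Eif5a, which helps ribosomes past stalling motifs, rose (log2 0.43, edgeR adjusted p = 0.0132), and Eef2, the translocase of the ribosome, fell (-0.32, adjusted p = 0.0386), the only 2 of 8 cytosolic elongation factors to pass. Gatb, a subunit of the amidotransferase that makes mitochondrial glutaminyl-tRNA, had 10.0, 9.55, 7.91 and 10.1 CPM in high glucose and 12.9, 13.9, 13.5 and 11.6 CPM in low glucose. It fell with groups apart (log2 -0.47, edgeR adjusted p = 0.0131), the one gene to pass of the 4 of the mitochondrial amidotransferase and formyltransferase. Of 17 genes of tRNA 3′ end formation, splicing and export 3 fell, namely Rtcb, the tRNA ligase (-0.28, edgeR adjusted p = 0.0226), Elac1 (-0.26, adjusted p = 0.0284) and Rpp40, a subunit of RNase P (-0.58, adjusted p = 0.0381). None passed of 9 mitochondrial translation factors, 10 genes of mitochondrial tRNA processing, 5 of selenocysteine charging and 7 relatives of the synthetases, in edgeR, DESeq2 or limma-voom. At an unadjusted p below 0.05 in edgeR's test, 2 of the translation factors and 1 of the selenocysteine genes were lower, and 1 of the tRNA processing genes and 2 of the relatives were higher. The count of partners that fell was 10 with libraries scaled by total count alone and 1 to 5 when any 1 library was left out, and the count that rose was 12 without low glucose replicate 2. With the replicate block 13 rose and 12 fell, beside 18.9% and 18.5% of all genes.

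In the authors' deposited table, 12 cytosolic synthetases had an adjusted p below 0.05 and were higher in high glucose, the 11 named above and Gars (log2 fold change 0.20, adjusted p = 0.035). The authors' deposited table held no lower cytosolic member and no higher mitochondrial member, and Nars2 and Aars2 were its lower mitochondrial members. Of all its 27534 listed genes, 8.11% were higher and 7.11% lower at that threshold. The DESeq2 fit made here passed the same numbers of genes, 2233 higher and 1957 lower. These were 13.3% and 11.6% of the 16831 genes it tested. Besides Hars, Hars2 and Mars, 6 members share exon bases with an expressed gene on the opposite strand, so their values are uncertain. They are Farsb with Sgpp2 (248 bases), Yars with C77080 (30), Cars2 with Naxd (422), Ears2 with Ubfd1 (89), Fars2 with Nrn1 (501) and Lyrm4 (115), and Iars2 with Rab3gap2 (2034).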

How the data were processed

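RNA was extracted with an RNeasy micro kit and libraries made with NEBNext Ultra reagents, per the labels' protocols. Per the submitters' processing notes, STAR 2.5, HTSeq 2 and DESeq2 were used with mm10 (GRCm38). Not given in the sources used here were the strand setting, annotation release and treatment of multi-mapping reads. The deposited table holds the authors' raw read count per gene and library, per the file headers. It also holds a deposited signal (count over 1 size factor per library), the authors' FPKM, and the authors' log2 fold change and p-value, and only the counts were tested here.

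Counts were fitted with edgeR 4.0.16 in R 4.3.3 (TMM scaling, filterByExpr with minimum count 10 and minimum total 15, quasi-likelihood test, group as the only term, Benjamini-Hochberg over 15442 genes, threshold 0.05). The SE is the log2 fold change over the square root of F, and CPM uses TMM-scaled library sizes. Pair ratios used counts + 0.5 and an exact permutation test over 70 assignments. Alternatives were DESeq2 1.42.0, limma-voom (limma 3.58.1), other scalings, no filter, the replicate block, covariates and leaving out libraries. No library was a copy of another (chi-square per gene at least 9.64 for any pair). A count of 3 equals 0.120 to 0.154 CPM, which covers counting error only. Replicate numbers 1 to 4 occur in each group, and the labels do not define them. Deviations from group means correlated over 15442 genes at 0.101, 0.449, 0.404 and 0.475 between same-numbered libraries 1 to 4. The largest correlation of each high glucose library with a differently numbered low glucose library was 0.088, -0.090, -0.105 and 0.207. The numbers were taken to pair the libraries in the replicate block and in comparisons of same-numbered libraries, although for replicate 1 both values were low and close to each other. The main fit and the permutation test over 70 assignments did not use this pairing. Of the 36 members, 33 have the same coordinates in GENCODE M21. The fit was tested on simulated data. The members, lists and alternatives were chosen with earlier results of these data known. Named were all members, passing partners with the smallest adjusted p, and Atf4, Eif2ak4, Asns and Ddit3. Some results on single genes and sequences are not reported here.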

Additional observations from a re-analysis of the deposited data

Results flagged for a closer look

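Of 100 groups of 4 libraries examined (72 of CPM per member and 28 of pair ratios), 10 held 1 library far from the other 3. Chance flags about 1 in 20 such groups. Of the 8 such CPM values, 7 came from high glucose replicates 2 and 4. Dars had 89.6 CPM in high glucose replicate 2, against 73.6 to 75.3 in the other high glucose libraries. Vars had 98.8 CPM there, against 114.5 to 115 in the others, Ears2 had 14.9 CPM, against 18.1 to 18.4, and Lars2 had 1123 CPM, against 331 to 429.9. In high glucose replicate 4, Gars had 326 CPM, against 349 to 351, Qars 85.8 CPM, against 75.6 to 76.6, and Mars2 5.81 CPM, against 6.87 to 7.01. Iars2 had 62.8 CPM in high glucose replicate 1, against 58.1 to 58.9. The log2 ratio of Sars to Sars2 was 5.18 in high glucose replicate 4, against 4.92 to 4.95 in the other high glucose libraries. The log2 ratio of Tars to Tars2 was 2.05 in low glucose replicate 2, against 1.81 to 1.82 in the other low glucose libraries.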

How the results depend on the processing

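Of the 13 synthetases that passed, 9 kept their call in all 18 alternatives, and Rars, Iars, Mars and Vars lost it in 2, 9, 9 and 10 of them. Leaving out libraries gave 7 to 14 cytosolic members higher (7 without low glucose replicate 1 or 3) and 0 lower, 0 to 1 mitochondrial members higher, 7 to 12 partner genes higher, 1 to 5 lower, and 7 to 8 pair ratios past the threshold. Removing replicate 2 of both groups, an alternative chosen after seeing the data, gave 14 cytosolic members and 11 partner genes higher. The shares of all genes in the fits that left out libraries are not given here, so these counts have no background beside them. Partner genes lower numbered 10 with library size alone or without the insulin genes, 2 without a filter and 2 with the fibroblast share. With the replicate block, 2862 of all genes were lower, 13 partner genes were higher and 12 lower, and 0 pair ratios passed, by the size of that test.

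The members below changed sign, and all but Lars2 (0.37 in the main analysis) were within 0.1 of 0 there. With library size alone these were Dars (-0.031), Eprs (-0.084), Yars (-0.045), Cars2 (-0.0089), Ears2 (-0.078), Mars2 (-0.075) and Wars2 (-0.056). Without the insulin genes in the library size they were Dars (-0.021), Eprs (-0.071), Yars (-0.035), Ears2 (-0.067), Mars2 (-0.058) and Wars2 (-0.046). With the acinar share they were Eprs (-0.0036) and Wars2 (-0.021), with the fibroblast share Ears2 (-0.0044), and without replicate 2 of both groups Eprs (-0.018), Mars2 (-0.12), Lars2 (-0.12) and Rars2 (0.0024). Leaving out 1 library gave -0.023 to 0.11 for Dars, -0.060 to 0.042 for Eprs, -0.044 to 0.071 for Ears2, -0.10 to 0.16 for Mars2, -0.061 to 0.15 for Wars2, -0.052 to 0.011 for Rars2 and -0.19 to 0.63 for Lars2. The pair ratio ran from -0.00081 to 0.23 for Wars over Wars2 and from -0.048 to 0.61 for Lars over Lars2. The cause of these changes was not tested. Within groups, the median SD of the log2 values was 0.15 over the 16 mitochondrial members and 0.08 over the cytosolic members.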

Other observations

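The cytosolic members were also split by whether their amino acid is essential in the mouse diet, a split chosen after the values were seen. Of the 10 genes for enzymes that charge an essential amino acid, Farsa and Farsb each counted, 8 rose, with a median log2 fold change of 0.31 and a range of 0.16 to 0.93. Of the 10 others, 3 rose (Nars, Rars and Cars), with a median of 0.12 and a range of -0.09 to 0.57. Over all genes tested, 13.1% rose. The split was drawn from these same values, and no test was made of this difference.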
